A study of Bombus lucorum with 81 samples.

Results

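The 150 genes described here are those whose transcript levels differed most between 16 Alpine meadow sites in workers of the white-tailed bumblebee Bombus lucorum. They were chosen by eta squared, the share of a gene's variation over all 81 bees that lies between the sites and not among bees of the same site. Eta squared was taken on log2(CPM + 1), where CPM are a gene's reads scaled to the same library total in every bee, and genes had to average at least 5 CPM. Of 10581 genes in the table, 7857 passed that minimum, and the 150 members are the top of this ranking. Because the between-site differences chose them, their differences between sites are a description and carry no test.

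Each library was poly-A RNA of the thorax and abdomen of 1 wild worker, whose head and gut had been dissected away in the field. The sites lay between 641 and 1930 m, 6 of them in the lowland (30 bees), 5 at mid-elevation (25) and 5 in the highland (26). There were 45 bees from 9 grazed sites and 36 bees from 7 ungrazed sites, and each site gave 5 bees except H6 with 9 and Wmb5 with 2. Within the lowland, 17 bees were caught at high and 13 at low sampling temperature, and T4 was the site with bees of both classes. No bee was treated, and how the workers of a site were related was not given, so the bees of a site may share a colony.

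A bumblebee site sample mixes several layers of biology. Workers of a colony are sisters, foragers warm the thorax by shivering the flight muscles, and the abdomen holds fat body, glands and what is left of the digestive tract, each with its own transcripts. In bulk RNA of such a sample, less of a tissue and less of a transcript per cell cannot be told apart, and since CPM add up to the same total in every bee, a few very abundant transcripts lower the CPM of all others.

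The members had eta squared of 49.0% to 66.7% with a median of 51.1%, while the median of all genes over the minimum was 28.7%. The last genes inside the choice were LOC100646450 with 49.04%, LOC100646584 with 49.02% and LOC100643653 with 49.01%. The nearest genes left out were LOC100652055 with 48.96%, LOC100650007 with 48.90% and LOC100651800 with 48.90%, so the boundary does not part distinct groups. The difference between the highest and the lowest site mean of a member had a median of 1.07 on the log2 scale (0.55 to 3.43), against 0.89 for all genes. Bees of the highest and of the lowest site did not overlap in 135 members (90%), as they did not in 53.2% of all genes, a difference that the choice itself favours. In 0 members did the leading site, the site that held most of the between-site sum of squares, lie apart from every other bee. The same count was not taken over all genes, so it is not read as a trait of the members.

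Transcript names were at hand for 29 members (19.3%), and 23 of these are not called uncharacterized. Of all genes over the minimum 16.4% had a name, so lists made by name miss most genes. The other members are given by their identifiers. Genes placed by name in lists of heat shock proteins and chaperones, clock, immune, digestive, muscle, fat body, cuticle, detoxification, axonemal, venom, ribosomal and mitochondrial energy genes held 1 member among 173 listed genes (0.578%), where 1.91% of all genes over the minimum are members. The mitochondrial 10 kDa heat shock protein (LOC100646003), a co-chaperonin, was 1 member among 16 named heat shock and chaperone genes, and the other lists held 0 members, among them 0 of 28 digestive, 0 of 22 fat body and 0 of 20 muscle genes. The members lay on 26 contigs, with 6 of them on 1 unplaced contig that held 154 genes over the minimum.

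The members did not stand out at many sites independently. A single profile over the sites held 64.3% of the variation of their site means and the second profile 12.8%. On this profile 140 members lay on a common side, high at T5, Wma1, Wmb4 and T4 and low at Wma6, H6, Wma2, T3 and Wmb1, and 10 lay on the opposite side. The site means of the 140 common-side genes correlated with the mean of the other common-side genes at a median r of 0.86 (lowest 0.26, n = 16 sites), and 132 of them over 0.5. They moved together within sites as well, with a median r of 0.69 after the site means were removed (n = 81 bees), positive in all 140. These correlations are descriptions, since the points share libraries and totals. The side of a gene was set from these same site means, which by itself favours positive correlations across sites. Within sites the mean correlation over pairs was 0.44 for common-side members and 0.13 for all genes.

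**Figure D1:**
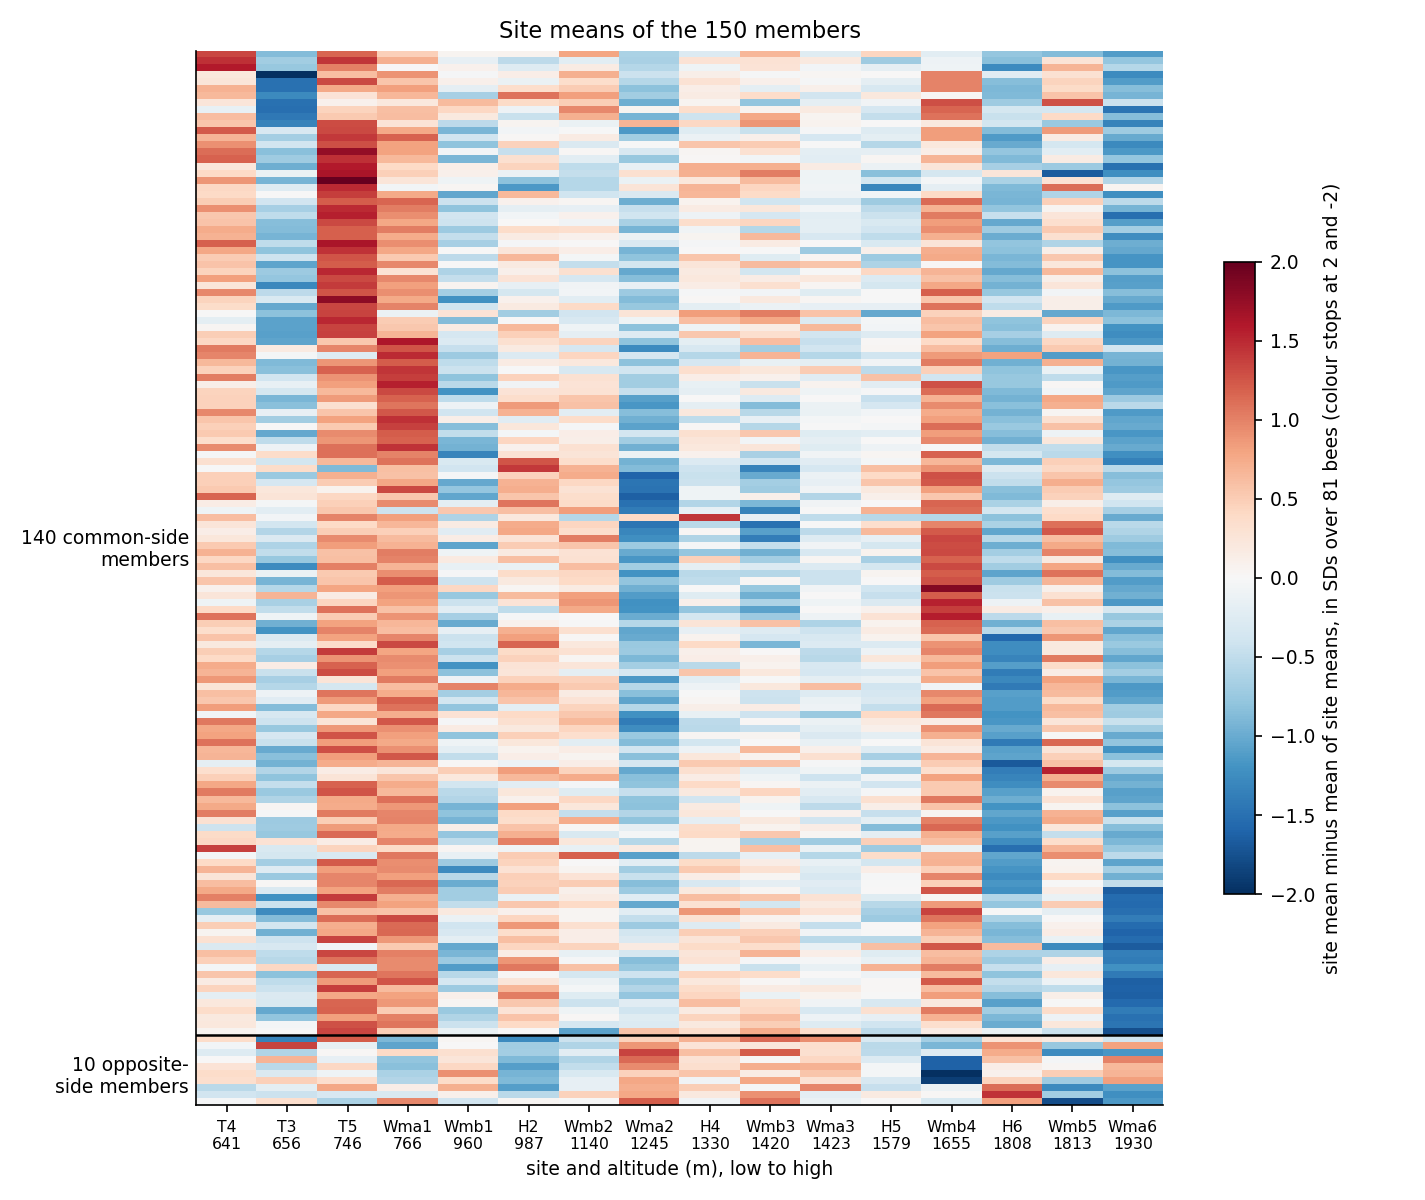
Site means of the 150 members (one line per gene) at 16 sites ordered by altitude in m, each as its distance from the mean of the site means in SDs over the 81 bees, red above and blue below, with the 140 common-side members over the black line and the 10 opposite-side members under it, sorted by leading site. The common-side members are red at T5, Wma1 and Wmb4 and blue at H6, Wma6 and Wma2 over most lines.

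A score, the mean log2(CPM + 1) of the 140 common-side genes in a bee, shows which sites stood out. It was 5.68 ± 0.16 at T4, 5.22 ± 0.16 at T3, 5.83 ± 0.24 at T5, 5.85 ± 0.097 at Wma1, 5.28 ± 0.27 at Wmb1 and 5.61 ± 0.37 at H2 in the lowland (SD, n = 5 each). At mid-elevation it was 5.54 ± 0.21 at Wmb2, 5.16 ± 0.20 at Wma2, 5.49 ± 0.073 at H4, 5.45 ± 0.23 at Wmb3 and 5.39 ± 0.26 at Wma3 (SD, n = 5 each). In the highland it was 5.41 ± 0.16 at H5, 5.78 ± 0.15 at Wmb4 and 5.01 ± 0.21 at Wma6 (SD, n = 5 each), 5.09 ± 0.29 at H6 (SD, n = 9) and 5.57 ± 0.026 at Wmb5 (SD, n = 2). High and low sites were thus found in the same belt. In the lowland, the bees of T3 lay between 5.05 and 5.36 and those of T5 between 5.57 and 6.10, without overlap, and in the highland the bees of Wma6 lay between 4.78 and 5.36 and those of Wmb4 between 5.62 and 5.94. The site means spanned 0.832, against a median SD among bees of a site of 0.205. Neighbours in this order, such as T5 and Wma1 or H6 and Wma6, differed by less than their SD. The choice of the genes itself favours a wide span of site means beside this SD and gaps between high and low sites.

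H6 was the leading site of 38 members (25.3%), of 10.9% of all genes, and was low in 36 of them. T5 led in 30 members (20%, against 16.0% of all genes), high in all of them, and Wma6 in 22 (14.7%, against 13.9%), low in all of them. Wmb4 led in 19 (12.7%, against 10.2%), high in 15, and Wma1 in 16 (10.7%, against 8.02%), high in all of them. T3 led in 10 (6.67%, against 6.53%), low in 9, and Wma2 in 7 (4.67%, against 5.82%), low in 6. Apart from H6, these shares were near those of all genes. In these sums of squares each site was weighted by its number of bees. This favours H6 with 9 bees over Wmb5 with 2 as the leading site, in members and in all genes. T4 led in 3 members, H2 in 2, and Wmb1, Wmb3 and H4 in 1 each, while Wmb2, Wma3, H5 and Wmb5 led in 0. Wmb1, which led in 14.3% of all genes, was rarely the leading site of a member. In most members several sites carried the difference, for the leading site held a median of 24.7% of the between-site sum of squares (16.0% to 55.2%) and more than 50% in 2 members.

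The libraries differed between these sites in another way. Although the gut had been dissected away, 21 genes named as peritrophins, chymotrypsins, trypsins, mucins and alpha-glucosidases, which line and serve the digestive tract, together took 0.0738% to 6.74% of the reads of a bee. The most abundant of them, LOC100643150, a peritrophin-1 of the peritrophic membrane around the food, ranged from 0.0800 to 31927 CPM. These gut-type transcripts were over 1% of the reads in 41 of 81 bees, among them 4 of 5 bees at T3, 5 of 5 at Wma2, 8 of 9 at H6 and 4 of 5 at Wma6, and 1 of 5 at T4, 0 of 5 at T5, 2 of 5 at Wma1 and 2 of 5 at Wmb4. Site medians of their summed CPM were 32965 at T3, 36261 at Wma2, 44941 at H6 and 35640 at Wma6, the 4 sites of the lowest scores, and 1978 at T4, 1247 at T5, 1346 at Wma1 and 1084 at Wmb4, the 4 sites of the highest scores. Wmb1, with a low score, had a low median of 1947. None of the 21 genes is a member.

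**Figure D2:**
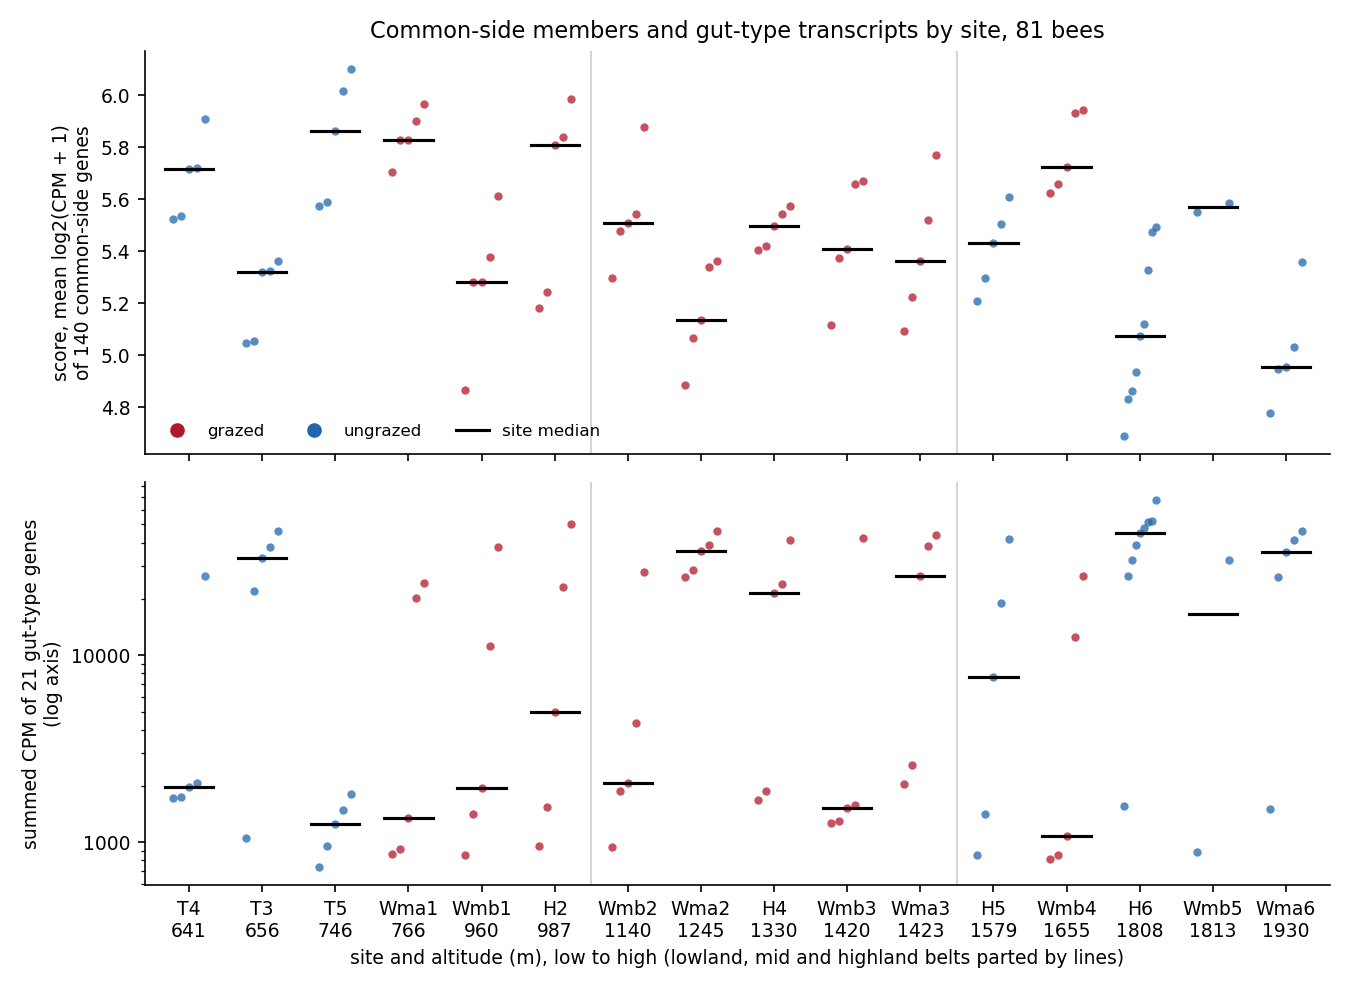
Upper panel, the score of the 140 common-side members in each of 81 bees, in log2(CPM + 1). Lower panel, the summed CPM of 21 gut-type genes in the same bees, on a log axis. Sites run by altitude in m, points are bees (red grazed, blue ungrazed), black bars are site medians, and grey lines part the lowland, mid and highland belts. Sites of low score such as H6, Wma6 and Wma2 hold mostly bees of high gut-type level (site medians of 44941, 35640 and 36261 CPM), and the highest of the 5 bees of T5 lies at 1806 CPM.

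Over the 16 site means, the score and the log2 summed gut-type CPM had r = -0.83, and among bees of the same site r = -0.38 (n = 81). The gut-type level of a site held a median of 52.9% of a member's between-site sum of squares, against 20.9% for all genes. It held more than 50% in 83 members, 81 of them on the common side, and in 16.5% of all genes. With the gut-type level of each bee as a covariate, eta squared of the members had a median of 43.2%, against 26.8% for all genes, and 67 of the 150 genes would again have been chosen. Subtracting the within-site slope on the gut-type level left site means of the score spanning 0.730, again from Wma6 to Wma1. With library totals that left the 21 genes out, they spanned 0.804.

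Markers of other tissues moved with the score to differing degrees. Their lists hold only genes with a name at hand, and the correlations were taken on log2(summed CPM + 1). The summed CPM of 19 muscle genes, from 1816 to 25053, had r = -0.41 with the score over site means and its highest site median, 6923, at Wmb1. That of 3 fat body genes (vitellogenins and hexamerin), from 6.92 to 4203, had r = 0.60. That of 10 axonemal and testis genes, from 16.8 to 110, had r = 0.86, and that of 8 venom and gland genes, from 547 to 6180, had r = 0.11. Defensin, an antimicrobial peptide and the only gene of the immune marker list that was found, ranged from 36.1 to 20866 CPM with r = 0.84. Within sites, r was -0.24 for muscle, 0.33 for fat body and 0.66 for axonemal and testis genes. It was 0.055 for venom and gland genes, 0.17 for defensin and -0.38 for the gut-type genes. The part of these tissues in the site differences was not tested beyond the values given here.

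The members were also long genes, a property the choice did not use. Their median exon length was 3835 bases against 2488 for all genes, and 116 of 150 were longer than that median. The common-side members had a median of 4071.5 bases and the opposite-side members 2091.5, with 3 of those 10 over the median of all genes. In each bee, a length slope was fitted over all genes, the change in log2(CPM + 1) for each doubling of exon length. It is higher where long genes are better represented, and it ranged over site means from -0.0060 at Wma2 to 0.245 at T5. The score and this length slope had r = 0.80 over 16 site means and 0.59 within sites, and the slope held a median of 52.8% of the members' between-site sum of squares, against 18.9% for all genes. RNA integrity numbers were stated for the series as a range from 2.7 to 9.0 and not by bee, so that the part of RNA quality was not tested.

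**Figure D3:**
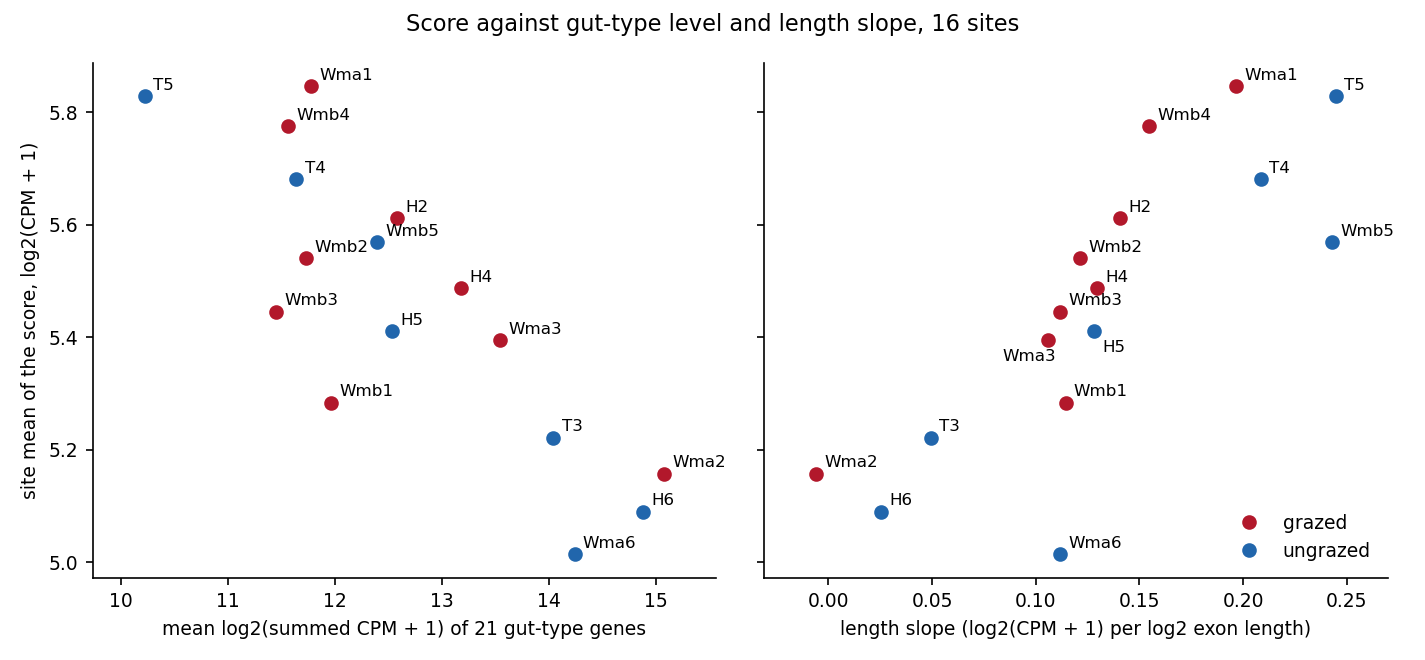
Site means of the score, in log2(CPM + 1), against the site mean of log2 summed gut-type CPM (left) and against the site mean of the length slope (right), 1 point per site, red grazed and blue ungrazed. The score runs down with the gut-type level (r = -0.83) and up with the length slope (r = 0.80), with Wmb1 under the other sites of a similar gut-type level and Wma6 under those of a similar length slope.

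Library scaling moved the choice. TMM, which scales each library so that most genes do not differ, gave factors of 0.701 to 1.44, and the log2 factor had r = 0.86 with the score over site means. With TMM-scaled values 77 of the 150 genes would have been chosen, 67 of 140 on the common side and all 10 on the opposite side. The site means of the score then spanned 0.511. They were 5.60 at T4, 5.58 at T5, 5.70 at Wma1 and 5.65 at Wmb4, no longer above H2 (5.61) and Wmb5 (5.63) as a group. They were 5.28 at T3, 5.19 at Wma2, 5.19 at H6, 5.21 at Wma6 and 5.43 at Wmb1.

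The gene with the highest eta squared, LOC105666994 with 66.7%, has no name at hand. It had 3.69, 5.399, 5.89, 7.59 and 15.3 CPM in the 5 bees of Wma6, its leading site, against a median of 21.99 CPM in the other 76 bees (4.59 to 62.0). At Wmb4, its highest site, the bees had 41.8 to 50.02 CPM, above every bee of Wma6. With TMM its eta squared was 67.6%.

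LOC100650845, without a name, was the member that rested most on 1 site, with 55.2% of its between-site sum of squares at H6. Its 9 bees there had 43.6 to 97.2 CPM with a median of 71.5, against a median of 107 CPM in the other 72 bees (72.9 to 167). LOC100651429, the heparan sulfate proteoglycan core of basement membranes (perlecan in mammals), had 61.1 to 214 CPM at H6 with a median of 112, against a median of 229 CPM elsewhere (95.7 to 949). Its highest site was T4, where bees reached 237 to 949 CPM, without overlap with H6. LOC100648825 had 28.7 to 73.7 CPM at H6 against a median of 74.1 elsewhere, LOC100649888 had 7.62 to 21.2 CPM against a median of 20.8, and LOC100646198 had 5.96 to 18.4 CPM against a median of 17.7. H6 was thus low in each of these unnamed genes, but not apart from other low sites, for all 5 bees of Wma2 lay within its range in each of the last 3.

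T5 was the high end of many members. LOC100648908, an unnamed gene with 49.6% of its between-site sum of squares at T5, had 39.6, 42.5, 45.9, 52.3 and 58.6 CPM there, against a median of 26.9 CPM in the other bees (15.3 to 49.2). Synaptojanin-1 (LOC100649435), a phosphoinositide phosphatase that acts in synaptic vesicle recycling, had 46.0 to 79.2 CPM at T5, against a median of 28.4 CPM elsewhere (14.1 to 58.1) and 14.1 to 33.6 CPM at Wmb1, its lowest site. Tetratricopeptide repeat protein 28 (LOC100645434) had 29.6 to 43.0 CPM at T5 against a median of 19.7 elsewhere. The cytoplasmic dynein heavy chain (LOC100647009), the motor subunit for transport along microtubules, had 276 to 382 CPM against a median of 252. Among unnamed members, LOC100646594 had 292 to 436 CPM at T5 against a median of 252 elsewhere, LOC100651575 had 52.3 to 85.2 CPM against 41.3, LOC100646584 had 189 to 322 CPM against 162, and LOC100643653 had 61.8 to 106 CPM against 61.8.

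Wma6 and Wma2 were low in members of several kinds. TBC1 domain family member 25 (LOC100648385), of a family of proteins that switch off Rab GTPases in membrane traffic, had 24.3 to 33.5 CPM at Wma6, against a median of 44.8 CPM in the other bees (23.3 to 99.0). LOC100650621 had 5.53 to 7.76 CPM at Wma6 against a median of 12.3, and LOC100646450 had 3.32 to 8.75 CPM against 13.7. Protein misato (LOC100645400), needed in Drosophila for chromosome segregation, had 19.3, 23.0, 23.1, 24.6 and 34.2 CPM at Wma2, against a median of 40.9 CPM elsewhere (20.4 to 68.7) and 53.6 to 67.6 CPM at Wmb4. LOC100643133 had 37.1 to 89.1 CPM at Wma2 against a median of 104.

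Proteins that bind or process RNA were present among the members with a name, an observation made after their values were seen and not tested. RNA-binding protein Rsf1 (LOC100651873), in Drosophila a regulator of splicing, had 28.3 to 87.5 CPM at Wma2, its lowest site, and 142 to 197 CPM at Wma1, its highest. The hrp65 protein (LOC100644709), a nuclear RNA-binding protein known from the midge Chironomus, had 26.9 to 46.5 CPM at Wma6 and 72.0 to 119 CPM at Wma1. RNA-binding protein 5 (LOC100646093), a splicing regulator in mammals, had a median of 57.0 CPM at H6 and of 125 CPM at Wma1, and the KH domain RNA-binding protein LOC100647173 had 19.0 to 36.1 CPM at Wma2 and 46.2 to 62.2 CPM at Wma1. By site mean these 4 were highest at Wma1, and by site median Rsf1 (166 CPM) and RNA-binding protein 5 (126 CPM) were highest at H2. With TMM their eta squared were 45.6% to 56.6%. The study's pathway lists, used here as annotation alone, place LOC100650047 and LOC100647331 in RNA transport and LOC100645918 in ribosome biogenesis. The nuclear valosin-containing protein-like gene (LOC100647802), whose mammalian counterpart is an ATPase of ribosome assembly, had 49.1 to 62.0 CPM at Wmb4 against a median of 41.9 elsewhere.

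Other named common-side members had their highest and lowest sites among the same high and low sites. The regulatory subunit 1 of protein phosphatase 4 (LOC100650884) had 70.9 to 120 CPM at Wma1 and 27.9 to 53.9 CPM at Wma2. Phosphoinositide 3-kinase regulatory subunit 4 (LOC100649679), a partner of the lipid kinase of autophagy and endosomes, had 25.9 to 53.8 CPM at H6 and 50.3 to 75.5 CPM at T5. A zinc finger protein (LOC100646370) had 33.4 to 46.2 CPM at Wma6 and 45.2 to 82.3 CPM at T5. The bees of the highest and lowest site did not overlap in the first of these genes, and overlapped in the other 2.

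Other members, all without a name at hand, were led by T3, T4, Wma1, Wmb4 and further sites. LOC100647162 had 6.99, 7.23, 7.62, 7.76 and 8.53 CPM at T3, with 46.8% of its between-site sum of squares there, against a median of 15.0 CPM elsewhere (6.71 to 26.4), and LOC100647652 had 11.96 to 14.9 CPM at T3 against 23.3. At T4, LOC100650759 had 95.2 to 118 CPM against a median of 78.8 elsewhere, and LOC100644291 had 144 to 229 CPM against 119. At Wma1, LOC100649239 had 19.7, 21.7, 25.5, 33.1 and 71.8 CPM against a median of 8.41 elsewhere (1.23 to 35.4), and LOC100644678 had 15.5 to 22.2 CPM against 11.3. LOC100648708 had 54.1 to 76.4 CPM at Wmb4 against 39.9, and LOC100644245 had 50.9 to 64.2 CPM there against 44.5. H4 was high in LOC100649352, with 6.88 to 14.4 CPM against 4.62. Wmb3 was low in LOC105667088, with 45.2 to 62.9 CPM against 101, and Wmb1 in LOC100644262, with 10.7 to 15.3 CPM against 17.9.

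H2 led in LOC100647592, with 13.0 to 40.5 CPM against a median of 13.2 elsewhere, and in LOC110119729, with 22.9 to 37.7 CPM against 13.7. LOC110119729 lies 257 bases from LOC100647746, another member on the same strand, which was led by Wma2 with 484 to 769 CPM against 814, and their levels correlated within sites at r = 0.50 (n = 81). LOC100644659 and LOC100644310, the other pair of neighbours, lie 10 bases apart on opposite strands and had r = 0.50 within sites. LOC100644659 had 19.1 to 36.5 CPM at T5, its leading site, against 14.3 elsewhere, and LOC100644310 had 4.21 to 15.4 CPM at H6, its leading site, against 17.3.

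The 10 opposite-side members did not form 1 group, and were described in full after their values were seen. The site means of 5 of them, LOC105665771 (r = -0.81), LOC100647936 (r = -0.81), LOC100648886 (r = -0.64), LOC100650592 (r = -0.54) and LOC100649761 (r = -0.51), ran against the score. Those of LOC100649276 (r = -0.22), LOC100646034 (r = -0.013), LOC100642713 (r = -0.10), LOC100646003 (r = -0.11) and LOC100645524 (r = -0.14) were little related to it (n = 16 sites). The side was set from these same site means, which by itself favours r below 0. The gut-type level held more than 50% of the between-site sum of squares in 2 of the 10.

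Among them, 4 genes shared a low level at Wmb4, and those with a name are metabolic enzymes. Tryptophan 2,3-dioxygenase (LOC100650592), which opens the breakdown of tryptophan to kynurenine and in flies feeds the brown eye pigments, had 13.8, 14.2, 122, 167 and 286 CPM at Wmb4, against a median of 433 CPM in the other bees (41.9 to 1384). Its 3.43 on the log2 scale between the highest and lowest site mean was the widest of all members. Amidophosphoribosyltransferase (LOC100649761), the committing step of purine synthesis, had 10.3, 10.9, 12.3, 16.0 and 16.9 CPM at Wmb4, against a median of 46.8 CPM elsewhere (5.88 to 121). The FGGY carbohydrate kinase domain-containing protein (LOC100648886), of a family that phosphorylates sugars, had 27.2, 28.1, 32.3, 55.7 and 93.0 CPM at Wmb4, against a median of 168 CPM elsewhere (42.9 to 456). LOC100647936, placed by the study's lists in glycine, serine and threonine metabolism, had 71.0, 83.5, 91.0, 154 and 211 CPM at Wmb4, against a median of 455 CPM elsewhere (80.9 to 1131). All 5 bees of Wmb4 lay under the median of the others in each of the 4 genes, with some overlap in range. Over 6 pairs of these genes the correlation was 0.77 to 0.90 across site means (n = 16). Grouping the genes by their side and their low mean at Wmb4 favours this by itself. Within sites it was 0.41 to 0.63 (n = 81), against a mean of 0.13 over pairs of all genes, so they also moved together among bees of the same site.

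**Figure D4:**
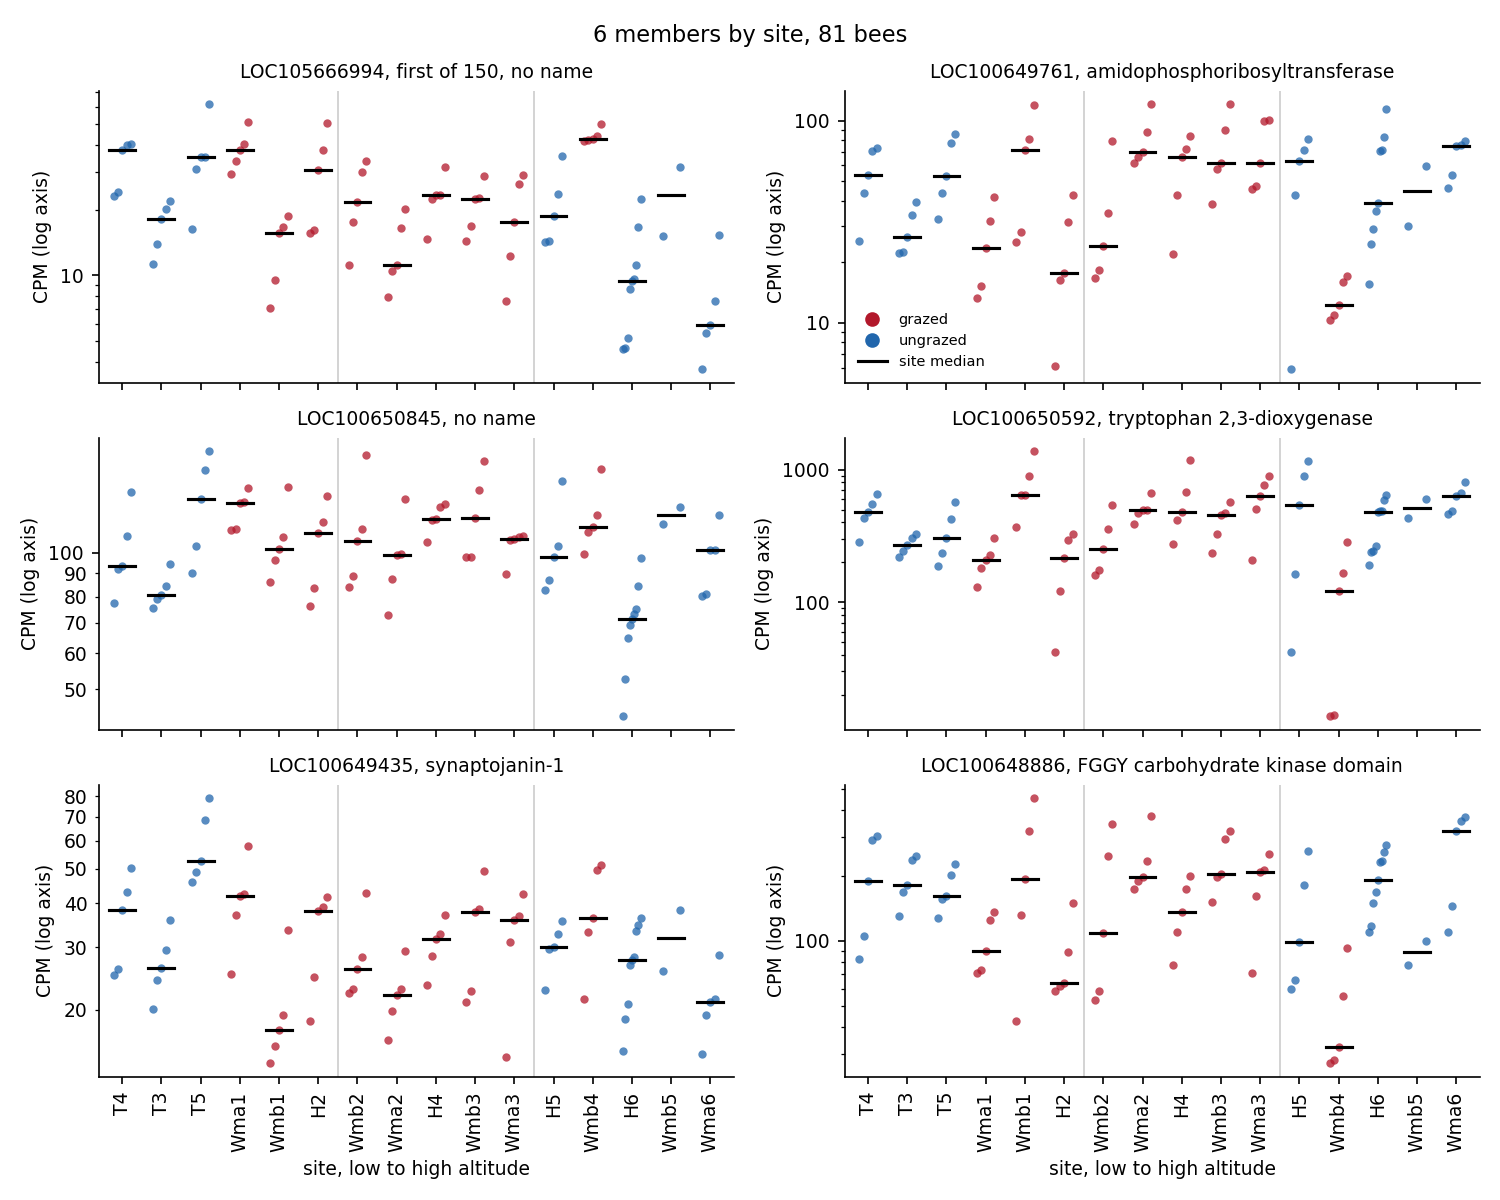
CPM of 6 members in 81 bees on log axes, sites by altitude, points bees (red grazed, blue ungrazed), black bars site medians and grey lines the borders of the belts. In the left column LOC105666994 is low at H6 and Wma6, LOC100650845 is low at H6 and synaptojanin-1 is high at T5, and in the right column the 3 enzymes are lowest at Wmb4, where amidophosphoribosyltransferase had 10.3 to 16.9 CPM.

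The other opposite-side members had other leading sites, 2 low and 4 high there. The von Hippel-Lindau tumor suppressor (LOC100646034), the part of a ubiquitin ligase that recognises the hypoxia-inducible factor, had the second highest eta squared of all members with 60.6%, and 6.48, 6.96, 6.98, 8.33 and 8.55 CPM at T3, against a median of 11.99 CPM elsewhere (6.41 to 21.3). The mitochondrial 10 kDa heat shock protein (LOC100646003) had 40.9 to 133 CPM at Wma6 against a median of 152 CPM elsewhere (41.8 to 477). LOC100645524, the member with one of the highest levels, had 1175 to 4668 CPM at H6 with a median of 1764, against a median of 798 CPM elsewhere (131 to 5417). LOC100649276 had 123 to 248 CPM at H6 against 94.2, LOC105665771 had 12.5 to 57.9 CPM at T3 against 16.2, and LOC100642713 had 131 to 319 CPM at Wma2 against 110.

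How far elevation, grazing and sampling temperature account for the members was asked in 2 ways, by the share of the between-site sum of squares that each holds and by fits over sites. Both use the site differences that chose the members, so values of members beside all genes are a description and not a test. Altitude as a straight line held a median of 17.6% in the members, against 7.94% in all genes, and the 3 belts held 18.03%, against 13.4%. Grazing held 5.70%, against 3.99%, and altitude and grazing together 24.3%, against 15.3%. In 0 members did altitude, belt or grazing hold more than 50%, near the 0.42%, 0.95% and 0.19% of all genes in which they did. The highest were 43.2% for altitude in LOC100649909, 45.2% for belt in LOC100651429 and 43.9% for grazing in LOC100647652. Altitude and grazing together held more than 50% in 3 members, against 1.62% of all genes, with 60.8% in LOC100648803. Plant cover held 26.6%, against 11.0%, plant richness 2.80%, against 2.90%, and the transect on which a site lay 9.64%, against 10.4%. With TMM-scaled values the share of altitude in the members was 11.1%. With unweighted site means altitude held 11.7% and grazing 3.24%. H6 and Wma6, both low, are among the highest sites, and without H6 the median for altitude was 8.80% and without Wma6 11.3%, whereas without T3 it was 31.9% and without Wmb4 30.6%.

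**Figure D5:**
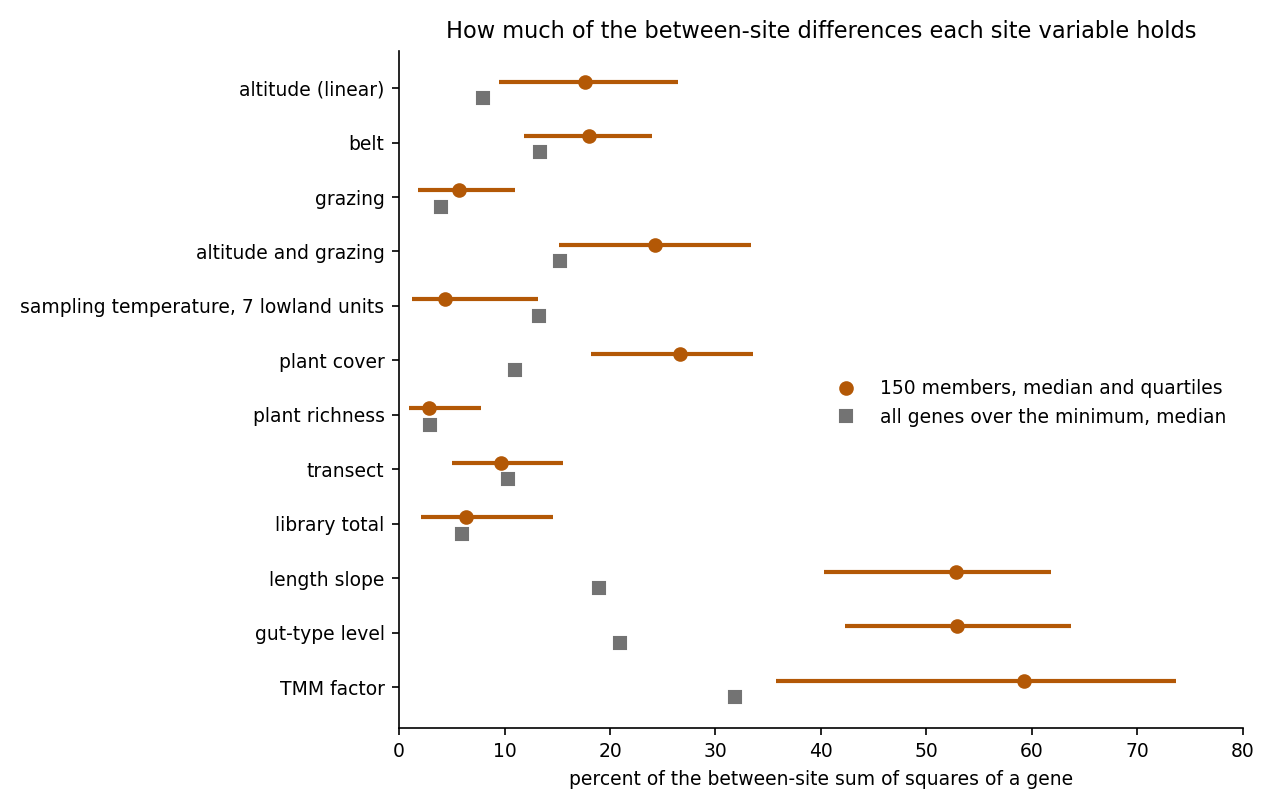
Percent of a gene's between-site sum of squares held by each site variable on its own (altitude and grazing together in 1 row), for the 150 members (orange, median with a line between the quartiles) and for all genes over the minimum (grey squares, median). Altitude and grazing stand at 17.6% and 5.70% in the members, and the gut-type level, the length slope and the TMM factor at 52.9%, 52.8% and 59.3%. Sampling temperature stands at 4.32%, a share of the sum of squares between 7 lowland units of site and class. The other shares are over 16 sites, so the 2 kinds are on unlike scales.

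The fits used edgeR's quasi-likelihood test on counts summed over the bees of a site, so that sites and not bees were the replicates, with p adjusted over all genes. Differences between these sites also chose the members. Counts of members beside those of all genes may therefore reflect the choice, which was not tested. For altitude, edgeR called 0 of the 150 members at an adjusted p under 0.05 and a log2 change of at least 0.5 per 1000 m and 0 of 9998 genes (0%). At an unadjusted p under 0.05 there were 14 members (9.33%), all lower at higher sites, against 7.06% of all genes and 4.19% for genes below 0. DESeq2 called 0 members, against 0.02% of all genes. In 120 members (80%) the estimate was below 0, as in 53.3% of all genes, with a median of -0.13 on the log2 scale per 1000 m, against -0.016 for all genes. With the mean gut-type level of a site in the fit, an alternative added after the data were seen, the median was -0.0094 and 68 members were above 0, with 0 called by edgeR. The smallest adjusted p of a member was 0.607, for LOC100645434 (-0.35 per 1000 m), whose bees had 12.5 to 43.0 CPM with a median of 24.2 in the lowland, 13.5 to 33.6 with a median of 20.6 at mid-elevation and 10.3 to 27.4 with a median of 16.7 in the highland. LOC100650440 had -0.34 per 1000 m with medians of 60.5, 54.4 and 47.5 CPM in the lowland, mid-elevation and highland bees. The ranges of the 3 belts overlapped widely in both genes.

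For grazing, 0 members were called, as were 0 of 9950 genes (0%) by edgeR. At an unadjusted p under 0.05 there were 8 members (5.33%), all higher at grazed sites, against 5.42% of all genes and 2.42% for genes above 0. DESeq2 called 0 members, against 0.0704% of all genes. With the length slope in the fit, an alternative added after the data were seen, edgeR again called 0 members but 41 (27.3%) had an unadjusted p under 0.05, against 10% of all genes, and 125 were above 0. With the gut-type level they were 10 (6.67%), against 6.44%. The smallest adjusted p was 0.835, for LOC100647652 (0.41 on the log2 scale), with 13.6 to 46.9 CPM and a median of 25.4 in bees of grazed sites, and 9.23 to 34.3 CPM and a median of 17.98 in bees of ungrazed sites. LOC100647656 (0.37) had medians of 12.4 CPM at grazed and 8.67 CPM at ungrazed sites. Score means were 5.504 ± 0.22 over 9 grazed and 5.402 ± 0.31 over 7 ungrazed sites (SD over site means). All mid-elevation sites were grazed and 4 of 5 highland sites were not, so that grazing and elevation are partly confounded.

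Sampling temperature was compared within the lowland over 7 units, each the bees of 1 site and class, 4 of high (H2, T3, Wma1 and 2 bees of T4) and 3 of low temperature (T5, Wmb1 and 3 bees of T4). It held a median of 4.32% of the members' between-unit sum of squares, less than the 13.2% of all genes, and more than 50% in 8 members (14.0% of all genes), 4 of them on the opposite side. The score was 5.62 ± 0.29 over the 4 units of high and 5.57 ± 0.27 over the 3 units of low temperature (SD). Both units of T4 come from the same site, and neither these SDs nor the fit paired them. By edgeR 0 members were called, against 1 of 9973 genes (0.01%), and 14 members (9.33%) had an unadjusted p under 0.05, against 13.3% of all genes. DESeq2 called 5 members (3.33%), against 3.82% of all genes, LOC100643134, LOC100645938 and LOC110119729 higher and LOC100649761 and LOC100650592 lower at high temperature. With the gut-type level of a unit in the fit, edgeR still called 0 members, against 0.0199% of all genes. An unadjusted p under 0.05 was then found in 42 members instead of 14 (28%), against 20.4% of all genes.

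The 8 members were these, with edgeR's adjusted p between 0.18 and 0.38. Amidophosphoribosyltransferase (LOC100649761) had the highest share, 81.2%, with 6.07 to 73.0 CPM and a median of 25.5 in the 17 bees of high temperature and 25.0 to 119 CPM and a median of 53.8 in the 13 bees of low temperature. Its log2 change was -1.02 with an SE of 0.26 (edgeR adjusted p = 0.195). Tryptophan 2,3-dioxygenase (LOC100650592) had 41.9 to 432 CPM and a median of 244 at high and 189 to 1384 CPM and a median of 549 at low temperature, with a log2 change of -1.21 and an SE of 0.38 (edgeR adjusted p = 0.271). The von Hippel-Lindau tumor suppressor (LOC100646034) had medians of 8.17 CPM at high and 13.0 CPM at low temperature. These 3 were lower at high temperature and overlapped between the classes.

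The other 5 were higher at high temperature. The U11/U12 small nuclear ribonucleoprotein 48 kDa protein (LOC100643134), of the spliceosome that removes minor introns, had 21.01 to 65.6 CPM and a median of 42.7 in bees of high and 14.6 to 50.6 CPM and a median of 27.1 in bees of low temperature, a log2 change of 0.53 with an SE of 0.12 (edgeR adjusted p = 0.18). Checkpoint protein RAD17 (LOC100645938), which loads the clamp that signals DNA damage, had medians of 7.70 CPM at high and 4.83 CPM at low temperature. Another zinc finger protein (LOC100646125) had medians of 27.0 and 20.6 CPM, the mitochondrial 10 kDa heat shock protein (LOC100646003) 177 and 113 CPM, and LOC110119729 24.5 and 10.9 CPM, in each case the first at high and the second at low temperature. None of these 5 passed edgeR's threshold, and their classes overlapped in range.

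At T4 the classes can be compared without a difference of site, in 2 bees of high and 3 bees of low temperature. By edgeR 0 members were called, as were 0 of 9328 genes (0%), with 18 members (12%) at an unadjusted p under 0.05 against 15% of all genes, and DESeq2 called 9 members (6%), against 7.78% of all genes. The choice favoured genes that vary little among bees of a site, which by itself favours low shares of members here. Without the first bee, of high temperature, edgeR called 1 member (LOC100649030), against 4.2% of all genes. The score was 5.91 and 5.72 in the bees of high and 5.72, 5.52 and 5.54 in those of low temperature. Tryptophan 2,3-dioxygenase (LOC100650592) had 432 and 285 CPM in the high and 657, 549 and 480 CPM in the low bees, in the direction seen over the lowland. Amidophosphoribosyltransferase had 73.0 and 25.5 CPM in the high and 53.8, 71.0 and 43.8 CPM in the low bees, without such a direction. The smallest adjusted p of a member was 0.143, for the FGGY kinase gene LOC100648886 (log2 change -1.58), with 106 and 82.7 CPM in the high and 189, 291 and 305 CPM in the low bees, which did not overlap. LOC100649276 had 78.7 and 58.9 CPM in the high and 114, 94.3 and 101.9 CPM in the low bees, and LOC100645524 had 957 and 581 CPM in the high and 329, 372 and 369 CPM in the low bees. The summed gut-type CPM was 1978 and 26503 in the high and 1723, 2068 and 1749 in the low bees, and its part in these differences was not tested.

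Fits over single bees, which count bees of a site as independent and so give p-values that are too small for genes chosen on site differences, called more members. By edgeR they called 6 members for altitude, all lower at higher sites (LOC100647592, LOC100648319, LOC100649346, LOC100651429, LOC105666713 and LOC105666994), against 1.22% of all genes and 0.833% for lower ones. For grazing they called 1 member, LOC100648803, higher in bees of grazed sites and placed by the study's lists in N-glycan biosynthesis, against 0.181% of all genes. For sampling temperature they called 9 members, 6 higher and 3 lower, against 4.06% of all genes. None of these members was called by edgeR with sites as the replicates.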

How the data were processed

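The deposited values are estimated counts, which the authors made with Cutadapt 2.5, STAR 2.7.2b against the Bombus terrestris assembly and featureCounts 1.6.4 on exons of protein-coding genes. Reads matching several places were counted as fractions, so that 28.5% of values are not whole (a tolerance of 0), and the authors applied no normalization. Totals per bee were 15700759 to 33784279 (median 26082949), which sets the counting precision. CPM were taken from these totals with a pseudocount of 1. Sites and bee numbers came from the labels, grazing and sampling temperature from the study's sample tables. Counts were rounded and summed per site, or per site and temperature class, filtered with filterByExpr, scaled with TMM and fitted with edgeR 4.0.16 in R 4.3.3, with DESeq2 1.42.0 as an alternative, and calls needed an adjusted p under 0.05 and a log2 change of at least 0.5. T4 was fitted bee by bee. p-values measure the spread between these sites or bees. The choice of members and the gene lists were made with earlier results of these data known. Named are the 12 members of highest eta squared, the 2 with the largest share at each leading site, the genes at the boundary, called members, listed families and neighbours, and, chosen after their values were seen, the opposite-side members, those with a transcript name, of which 1 is not reported here, and those of smallest p. The edgeR fit for altitude over site sums was tried on simulated counts, and the other fits were not. Contigs carry accessions alone, so no coordinates are given.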

Additional observations from a re-analysis of the deposited data

How the results depend on the processing

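The choice of members depended on scaling and covariates. Of the 150 genes, 77 would be chosen again with TMM-scaled library sizes, 88 with bee number as a replicate block, 67 with the gut-type level, 64 with the length slope and 52 with the length slope and TMM, the last 3 added after the data were seen. Leaving out bees of one number or single sites gave 76 to 139. Bee numbers did not pair the samples (mean correlation 0.033 for equal and -0.0078 for other numbers). No paired analysis was possible for the fits for altitude and grazing because they hold 1 sum per site. In the fit for sampling temperature, T4 gave a sum to each class. These sums were treated as independent, without a site term.

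The leading site's median share was 24.8% to 28.3% with one site left out and 25.7% in the members also chosen with TMM. The share of altitude was 8.80% (without H6) to 31.9% (without T3), 11.1% with TMM and 11.1% in those members. That of grazing was 2.44% (without H6) to 14.3% (without T5). That of sampling temperature was 4.32% to 14.8% (without T3), 9.41% with TMM and 11.3% in those members. With unweighted site means these shares were 24.2% for the leading site, 11.7% for altitude, 3.24% for grazing and 4.15% for sampling temperature. The causes were not tested.

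Over single bees edgeR called 6 members for elevation (1.22% of all genes), 1 for grazing (0.181%) and 9 for sampling temperature (4.06%). With the replicate block it called 6 for elevation (1.63% of all genes), 1 for grazing (0.398%) and 8 for sampling temperature (2.41%). DESeq2 called 5 for sampling temperature (3.82% of all genes) and 9 within T4 (7.78%). Within T4, leaving out a bee gave 0 to 1 calls, the 1 being LOC100649030 without the first bee (4.2% of all genes). Every other alternative of these 4 fits, 66 in all, called 0 members. They called at most 1.36% of all genes, for sampling temperature without Wmb1, and 0.602% within T4 without the second bee. The 0 members are near such shares and do not set the members apart. What read depth adds to the error of these fits was not tested.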
